A study of Homo sapiens with 24 samples.

Results

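A set of 10 genes that mark or drive the differentiation of B cells into plasma cells was followed through BET inhibition in a pair of leukemia cell lines. They are PRDM1, XBP1, IRF4, TNFRSF17, TNFRSF13B, FKBP11, DERL3, MZB1, SDC1 and CD38. The genes were chosen by name, with earlier results of these data known. Each is represented by the core transcript cluster (the array's counterpart of a gene) whose annotation gives that symbol alone. All 10 were found, each with 1 such cluster, among 14232 genes measured in this way.

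RNA was measured on 12 Affymetrix exon arrays, 3 in each of 4 groups: MUTZ-5 cells given JQ1, MUTZ-5 cells given DMSO, MHH-CALL4 cells given JQ1 and MHH-CALL4 cells given DMSO. MUTZ-5 and MHH-CALL4 are established human cell lines grown from B cell precursor leukemia (the acute lymphoblastic form), so each group describes 1 line and not patients in general. JQ1, which competes with acetylated chromatin for the bromodomains of BET proteins and so releases them, was used at 500 nM, and both JQ1 and its solvent DMSO were left on the cells for 8 hours. All values are log2 RMA levels as the authors deposited them. Separate cultures are not stated in the labels, so p-values rest on the spread among 3 samples that may be technical repeats.

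When a mature B cell becomes a plasma cell, the transcription factors IRF4 and PRDM1 (Blimp-1) shut down the B cell program, and XBP1 enlarges the endoplasmic reticulum for antibody secretion. XBP1 protein becomes active after IRE1, the product of ERN1, splices its mRNA. The receptors TNFRSF17 (BCMA) and TNFRSF13B (TACI) take survival signals from the ligands BAFF and APRIL, and SDC1 (CD138) and CD38 are surface proteins by which plasma cells are recognised.

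As a rough check of the cell type, since probes differ in how strongly they bind and levels of different genes are not strictly comparable on arrays, 8 or 9 of 10 precursor B cell markers lay above the median of all genes (8.52) in every group, with array means between 11.20 and 11.70. Markers of T and NK cells had array means between 6.34 and 6.65, with 1 of 10 above that median, and myeloid markers between 6.82 and 7.53, with 0 or 1 of 7 above it. Of 11 plasma cell markers other than the 10 genes, 5 or 6 lay above the median. Known indicators of BET inhibition moved in both lines: MYC fell by 1.32 in MUTZ-5 and fell by 2.05 in MHH-CALL4, and HEXIM1 rose by 1.51 in MUTZ-5 and by 1.76 in MHH-CALL4 (log2). On the main axis of variation within groups, which held 43.9% of it, 2 arrays stood farthest apart: replicate 3 of MUTZ-5 DMSO and replicate 3 of MHH-CALL4 JQ1. Counts of the 10 genes are therefore given with and without these arrays. The files used here carry no detection calls, and signal over background is not known.

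RefSeq promoters (GRCh38.p14, from 250 bases before to 50 after the transcription start) were found for 8 of the 10 genes, 12 promoters in all. None was found for TNFRSF17 and DERL3. The ER stress response element was searched on both strands as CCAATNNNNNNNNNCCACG, the core of the unfolded protein response element as TGACGTG, the E-box core as CACGTG and the core of the interferon-stimulated response element as GAAANNGAAA. These motifs can share letters, since ACGTG stands in both TGACGTG and CACGTG. The 3 promoters with a match are shown because they belong to XBP1 and to FKBP11 and MZB1, genes of the secretory machinery whose levels are described below, and capitals mark the matched letters.
XBP1, chr22:28800570-28800819, minus strand: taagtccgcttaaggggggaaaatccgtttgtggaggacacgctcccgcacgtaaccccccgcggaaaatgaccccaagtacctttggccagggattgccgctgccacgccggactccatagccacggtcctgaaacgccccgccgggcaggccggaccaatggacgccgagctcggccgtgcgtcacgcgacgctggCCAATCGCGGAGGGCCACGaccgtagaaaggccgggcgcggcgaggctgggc
FKBP11, chr12:48924959-48925208, minus strand: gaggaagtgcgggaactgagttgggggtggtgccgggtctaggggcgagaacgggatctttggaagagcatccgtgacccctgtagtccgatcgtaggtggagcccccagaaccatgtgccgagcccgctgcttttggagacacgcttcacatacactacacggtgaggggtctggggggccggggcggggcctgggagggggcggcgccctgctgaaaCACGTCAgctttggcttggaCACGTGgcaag
MZB1, chr5:139389914-139390163, minus strand: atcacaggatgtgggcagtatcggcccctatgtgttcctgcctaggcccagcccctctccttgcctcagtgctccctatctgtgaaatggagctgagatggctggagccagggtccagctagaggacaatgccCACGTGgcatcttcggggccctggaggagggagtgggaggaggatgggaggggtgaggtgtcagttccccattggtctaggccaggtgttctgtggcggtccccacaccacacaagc
Positions are counted from the first transcribed base as 1, and the base before it is -1. The XBP1 promoter shown held the ER stress response element at -52 to -34, a motif present in 0.11% of the 16425 promoters of measured genes. The FKBP11 promoter shown held the E-box core at 20 to 25 and, on the opposite strand, the unfolded protein response core at -1 to 6. XBP1 and FKBP11 each have another promoter among the 12, at a different start, and it held no match to any motif searched. In the MZB1 promoter the E-box core lay at -117 to -112. The E-box core was present in 8.32% and the unfolded protein response core in 2.16% of those 16425 promoters. Of the 12 promoters 0 held the interferon-stimulated response core, which 3.14% of the 16425 held. A match describes letters in this window and does not show that a factor binds there.

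Which of these genes respond to BET inhibition was asked by setting JQ1 against DMSO within each line. In MUTZ-5, 6 of the 10 genes fell and 0 rose at a Benjamini-Hochberg adjusted p under 0.05 (limma, adjusted over all genes): TNFRSF17, FKBP11, PRDM1, DERL3, MZB1 and XBP1. Over all genes 22% passed this threshold in MUTZ-5, 13% lower and 9.06% higher under JQ1. In MHH-CALL4, 4 of the 10 fell and 0 rose, namely FKBP11, DERL3, TNFRSF17 and MZB1, where 28.5% of all genes passed, 17.5% lower and 11% higher. The median JQ1 effect over the 10 genes was -0.41 in MUTZ-5 and -0.22 in MHH-CALL4, beside medians over all genes of 0.0084 in MUTZ-5 and 0.0065 in MHH-CALL4. At an unadjusted p under 0.05 the count of the 10 genes that were higher was 0 in either line too. These are bulk samples, in which fewer cells carrying a transcript and less of it per cell cannot be told apart.

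Without MUTZ-5 DMSO replicate 3, 7 of the 10 genes passed in MUTZ-5, the same 6 and CD38, which was higher. In MHH-CALL4 6 passed, the same 4 with XBP1 and CD38, which were lower. In that fit 3175 of 14232 genes passed in MUTZ-5, 1673 higher and 1502 lower, and 4575 in MHH-CALL4, 1841 higher and 2734 lower. Leaving out MHH-CALL4 JQ1 replicate 3 gave the same 6 genes in MUTZ-5 and the same 4 in MHH-CALL4. Over all genes 3265 of 14232 passed in MUTZ-5 and 3485 in MHH-CALL4 without that array. A change of at least 2-fold that also passed was reached by 1 of the 10 in MUTZ-5, TNFRSF17, and by 0 in MHH-CALL4, beside 1.62% and 2.01% of all genes. The 3 JQ1 and 3 DMSO values did not overlap for 8 of the 10 in MUTZ-5, 7 lower and 1 higher, beside 32.6% of all genes, 18.7% lower and 13.8% higher. In MHH-CALL4 they did not overlap for 6 of the 10, all lower, beside 43.7% of all genes, 24.1% lower and 19.7% higher. Decreases were 58.9% of all calls in MUTZ-5 and 61.5% in MHH-CALL4, and after median centring of the arrays 48.5% in MUTZ-5 and 51.5% in MHH-CALL4.

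**Figure D1:**
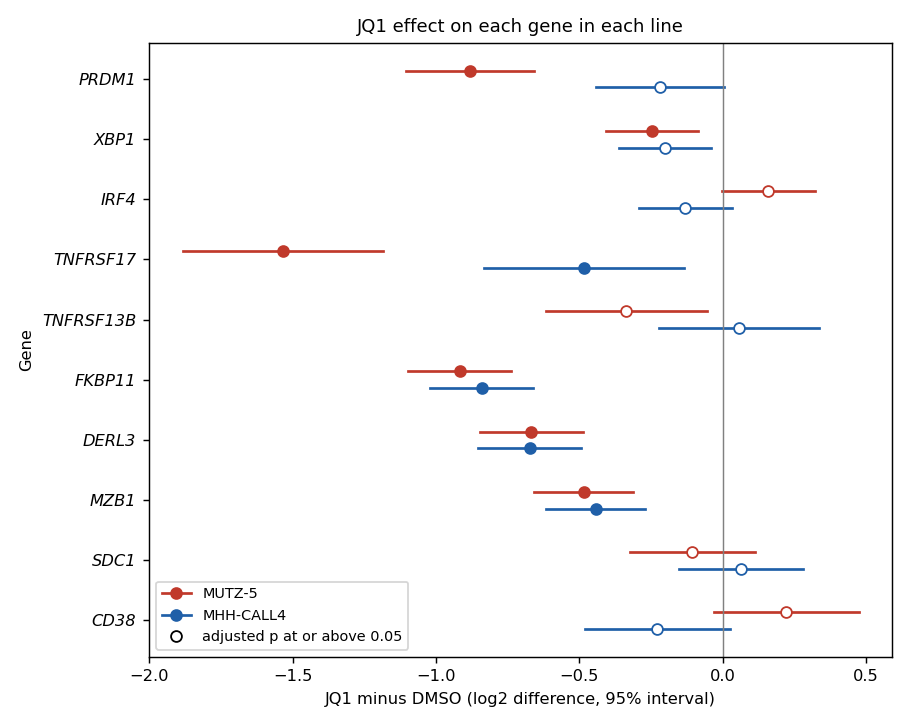
JQ1 minus DMSO (log2 difference, x axis) for each of the 10 genes (y axis) in MUTZ-5 and MHH-CALL4, with points at the limma estimate, bars for the 95% interval and open points where the adjusted p is at or above 0.05. FKBP11, DERL3 and MZB1 lie to the left of 0 at similar distances in both lines, while PRDM1 (-0.88 in MUTZ-5 and -0.22 in MHH-CALL4) and TNFRSF17 (-1.53 in MUTZ-5 and -0.48 in MHH-CALL4) lie farther left in MUTZ-5.

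Among the transcription factors, PRDM1, on chromosome 6, encodes a zinc finger repressor that ends the B cell program. Its levels in MUTZ-5 were 7.61, 7.49 and 7.54 under JQ1, against 8.34, 8.34 and 8.59 under DMSO. Every JQ1 array lay below every DMSO array. PRDM1 fell 1.84-fold in MUTZ-5 (log2 difference -0.88, SE 0.10, limma adjusted p = 4.11e-05). In MHH-CALL4 its levels were 7.34, 7.20 and 6.99 under JQ1, against 7.51, 7.25 and 7.43 under DMSO, and the groups overlapped. The MHH-CALL4 difference was -0.22 (95% interval -0.44 to 0.0052, adjusted p = 0.138), and it was -0.076 with the extended probe sets. PRDM1 was highest in MUTZ-5 under DMSO, and the other 3 groups lay within 0.37 of each other by their means, with MUTZ-5 JQ1 and MHH-CALL4 DMSO arrays overlapping.

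XBP1, on chromosome 22, encodes the transcription factor that turns on chaperones and other genes of the secretory pathway. The array cluster reads the gene as a whole and does not tell spliced from unspliced mRNA. In MUTZ-5 XBP1 levels were 12.24, 12.18 and 12.30 under JQ1, against 12.53, 12.50 and 12.43 under DMSO. All 3 JQ1 values lay below all 3 DMSO values. XBP1 fell 1.19-fold there (log2 difference -0.25, SE 0.074, adjusted p = 0.0277), a call lost when MUTZ-5 DMSO replicate 1 (adjusted p = 0.103), DMSO replicate 2 (0.0622), JQ1 replicate 1 (0.0774) or JQ1 replicate 2 (0.12) was left out. The call was also lost after median centring of the arrays (difference -0.20, adjusted p = 0.0557) and in a fit on the 6 MUTZ-5 arrays alone (0.0704). In MHH-CALL4 the levels were 13.09, 12.94 and 13.04 under JQ1, against 13.15, 13.33 and 13.19 under DMSO. These groups did not overlap either, and the difference of -0.20 (SE 0.074) missed the threshold (adjusted p = 0.0595), which it passed without MUTZ-5 DMSO replicate 3 (adjusted p = 0.0473), when genes below the median level were left out (0.0293) and in eBayes with trend (0.0159).

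IRF4, a further gene of chromosome 6, encodes an interferon regulatory factor needed for plasma cells and active in precursor B cells as well. Its MUTZ-5 levels were 11.05, 11.03 and 11.02 under JQ1, against 10.89, 10.76 and 10.98 under DMSO. JQ1 values lay above DMSO values without overlap, but the difference of 0.16 (95% interval -0.0040 to 0.32) did not pass (adjusted p = 0.174). With cyclic loess between arrays IRF4 passed as higher in MUTZ-5 (0.17, adjusted p = 0.0405). In MHH-CALL4 the levels were 11.44, 11.37 and 11.28 under JQ1, against 11.55, 11.43 and 11.50 under DMSO. The groups overlapped and the difference was -0.13 (95% interval -0.29 to 0.033, adjusted p = 0.228).

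Of the receptors, TNFRSF17, on chromosome 16, encodes BCMA, the receptor on which long-lived plasma cells depend. Its levels in MUTZ-5 were 5.50, 5.28 and 5.43 under JQ1, against 6.81, 6.65 and 7.36 under DMSO. The groups lay apart by more than 1 log2 unit, and DMSO replicate 3 was the highest array of all. TNFRSF17 fell 2.9-fold in MUTZ-5 (log2 difference -1.53, SE 0.16, adjusted p = 1.68e-05), the largest effect among the 10 genes, and the difference was -1.32 without MUTZ-5 DMSO replicate 3. MHH-CALL4 cells had 5.004, 5.41 and 5.41 under JQ1, against 5.66, 5.70 and 5.91 under DMSO. All JQ1 arrays lay below all DMSO arrays. The decrease was 1.4-fold (log2 difference -0.48, SE 0.16, adjusted p = 0.0393), and the call was lost when MHH-CALL4 DMSO replicate 1 (0.0594), DMSO replicate 2 (0.0819), DMSO replicate 3 (0.125) or JQ1 replicate 1 (0.149) was left out. The JQ1 means of 5.41 in MUTZ-5 and 5.27 in MHH-CALL4 lie below the 10th percentile of all genes (5.72). The MHH-CALL4 DMSO mean of 5.76 lies just above it, and how far such levels lie above background is not known.

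TNFRSF13B, on chromosome 17, encodes TACI, which shares both ligands with BCMA. Its MUTZ-5 levels were 8.65, 8.84 and 8.88 under JQ1, against 9.27, 8.98 and 9.13 under DMSO. The groups did not overlap, yet the difference of -0.34 (SE 0.13) missed the threshold (adjusted p = 0.0863), and it passed without MHH-CALL4 DMSO replicate 1 (adjusted p = 0.0332), the array that deviated most for this gene, and when genes below the median level were left out (0.0408). The MHH-CALL4 levels were 8.49, 8.66 and 8.79 under JQ1, against 8.28, 8.73 and 8.76 under DMSO. These values overlapped, with a difference of 0.056 (95% interval -0.22 to 0.34, adjusted p = 0.794).

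**Figure D2:**
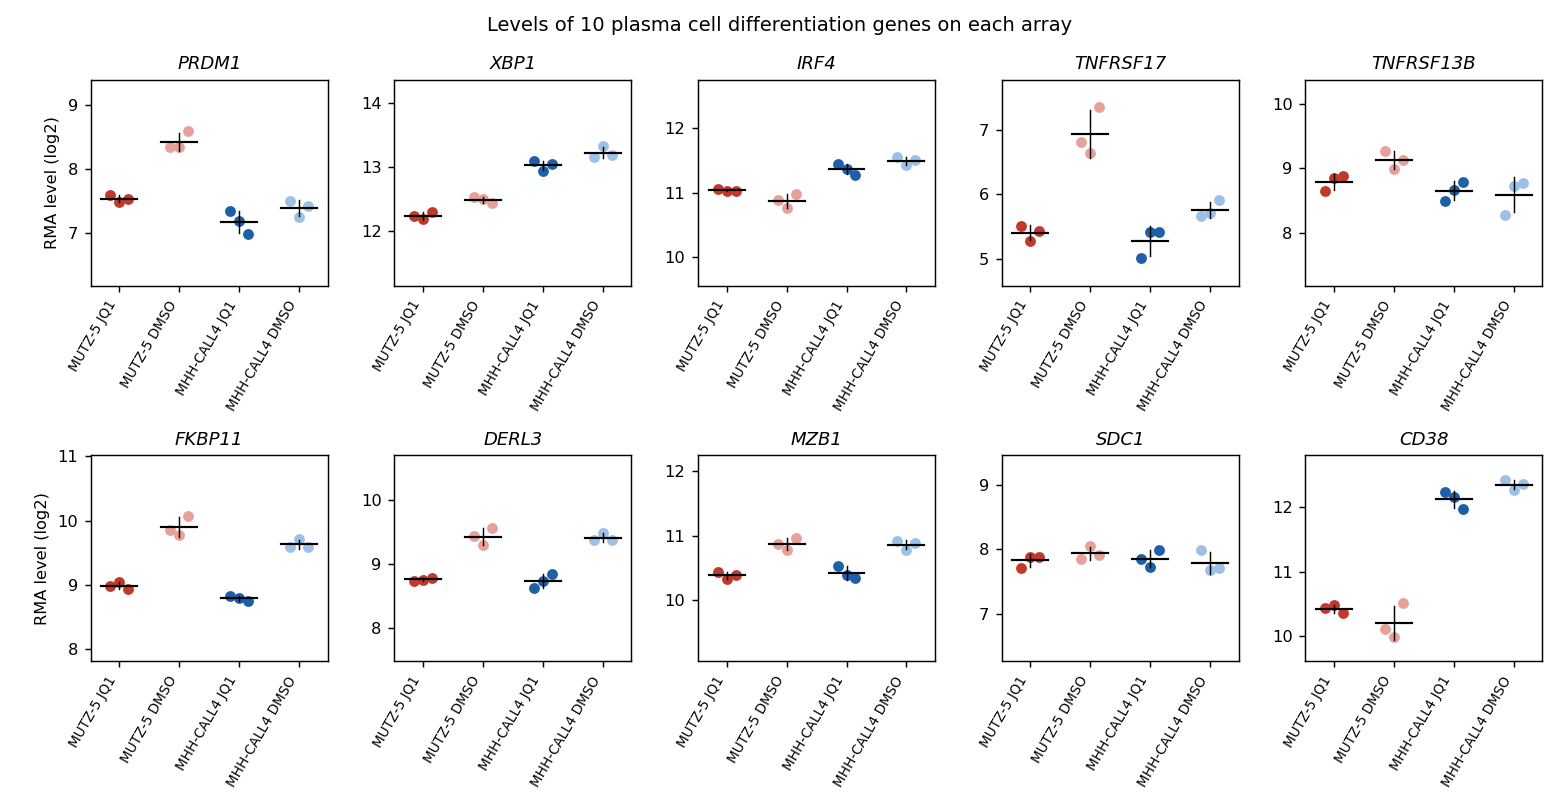
Levels of the 10 genes on each of the 12 arrays (RMA, log2, y axis, each panel with its own range of equal width) in MUTZ-5 JQ1, MUTZ-5 DMSO, MHH-CALL4 JQ1 and MHH-CALL4 DMSO. Points are arrays, horizontal lines group means and vertical lines 1 SD (n = 3); FKBP11, DERL3 and MZB1 show a similar step between JQ1 and DMSO in both lines, and XBP1 and CD38 are lower in MUTZ-5 than in MHH-CALL4 under both treatments.

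The 3 genes of the endoplasmic reticulum fell in both lines by similar amounts. FKBP11, on chromosome 12, encodes a peptidyl-prolyl isomerase of the secretory pathway that is abundant in antibody-secreting cells. Its levels in MUTZ-5 were 8.99, 9.04 and 8.93 under JQ1, against 9.86, 9.77 and 10.08 under DMSO. In MHH-CALL4 they were 8.83, 8.79 and 8.75 under JQ1, against 9.59, 9.71 and 9.60 under DMSO. In both lines the groups lay far apart relative to their spread, and MUTZ-5 DMSO replicate 3 was the highest array. FKBP11 fell 1.89-fold in MUTZ-5 (log2 difference -0.92, SE 0.083, adjusted p = 4.47e-06) and 1.79-fold in MHH-CALL4 (-0.84, SE 0.083, adjusted p = 6.47e-06).

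DERL3, on chromosome 22, encodes a derlin that helps to move misfolded proteins out of the endoplasmic reticulum for degradation. Its MUTZ-5 levels were 8.74, 8.75 and 8.79 under JQ1, against 9.43, 9.30 and 9.56 under DMSO. In MHH-CALL4 they were 8.62, 8.75 and 8.84 under JQ1, against 9.37, 9.49 and 9.37 under DMSO. The groups did not overlap in either line. The decrease was 1.59-fold in each line (log2 difference -0.67, SE 0.083, adjusted p = 6.5e-05 in MUTZ-5 and 4.48e-05 in MHH-CALL4).

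MZB1, on chromosome 5, encodes a chaperone-like protein of the endoplasmic reticulum that takes part in the assembly of immunoglobulin M. Its levels in MUTZ-5 were 10.44, 10.33 and 10.38 under JQ1, against 10.87, 10.77 and 10.97 under DMSO. In MHH-CALL4 they were 10.53, 10.38 and 10.34 under JQ1, against 10.92, 10.78 and 10.88 under DMSO. All JQ1 arrays lay below all DMSO arrays of their line. MZB1 fell 1.4-fold in MUTZ-5 (log2 difference -0.48, SE 0.080, adjusted p = 0.000627) and 1.36-fold in MHH-CALL4 (-0.44, SE 0.080, adjusted p = 0.000988). The calls of FKBP11, DERL3 and MZB1 held in both lines under every alternative run, including each of the 12 arrays left out in turn.

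The surface markers did not pass in either line. SDC1, on chromosome 2, encodes the proteoglycan syndecan-1, and its group means were 7.83 ± 0.0969 in MUTZ-5 JQ1, 7.94 ± 0.0978 in MUTZ-5 DMSO, 7.86 ± 0.130 in MHH-CALL4 JQ1 and 7.79 ± 0.173 in MHH-CALL4 DMSO (SD, n = 3 each). The 4 groups overlapped, and they spanned 0.14, the smallest span among the 10 genes. The JQ1 effect was -0.11 in MUTZ-5 (95% interval -0.32 to 0.11, adjusted p = 0.573) and 0.063 in MHH-CALL4 (-0.15 to 0.28, adjusted p = 0.693).

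CD38, on chromosome 4, encodes an enzyme on the cell surface that consumes NAD and is found on precursor B cells as well as plasma cells. Its levels in MUTZ-5 were 10.43, 10.48 and 10.36 under JQ1, against 10.11, 9.99 and 10.50 under DMSO. The groups overlapped through DMSO replicate 3, and the difference was 0.22 (SE 0.12, adjusted p = 0.233). Without that array it was 0.37 and passed (adjusted p = 0.00983). In MHH-CALL4 the levels were 12.24, 12.16 and 11.97 under JQ1, against 12.42, 12.27 and 12.36 under DMSO. The JQ1 values lay below the DMSO values, with a difference of -0.23 (SE 0.12) that did not pass (adjusted p = 0.17), and that passed without MUTZ-5 DMSO replicate 3 (adjusted p = 0.0482).

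The difference of the JQ1 effects, MUTZ-5 minus MHH-CALL4, asks whether the lines respond unequally. PRDM1 and TNFRSF17 fell more in MUTZ-5, 2 of the 10 genes, where 1.53% of all genes passed, 0.583% lower and 0.949% higher. The difference of effects was -0.66 for PRDM1 (SE 0.15, adjusted p = 0.0408) and -1.05 for TNFRSF17 (SE 0.23, adjusted p = 0.0377). Both lie close to the threshold, and both calls were lost with cyclic loess (adjusted p = 0.172 for PRDM1 and 0.0635 for TNFRSF17). PRDM1 passed in 2 of the 12 fits that leave out 1 array, those without MHH-CALL4 DMSO replicate 1 and without MHH-CALL4 JQ1 replicate 3, and its adjusted p ranged from 0.0151 to 0.121 over the 12. TNFRSF17 passed in 4 of the 12, those without MHH-CALL4 DMSO replicate 3, MHH-CALL4 JQ1 replicate 1, MUTZ-5 DMSO replicate 2 or MUTZ-5 DMSO replicate 3, with adjusted p from 0.0183 to 0.111. The differences themselves kept their sign in these fits, between -0.75 and -0.58 for PRDM1 and between -1.20 and -0.84 for TNFRSF17.

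For the genes of the endoplasmic reticulum the difference of effects was near 0, and its 95% interval bounds how far the lines could differ. It ran from -0.33 to 0.18 for FKBP11, from -0.25 to 0.26 for DERL3 and from -0.29 to 0.20 for MZB1, and for XBP1 from -0.27 to 0.18. IRF4 differed by 0.29 (95% interval 0.058 to 0.52, adjusted p = 0.309) and CD38 by 0.45 (0.092 to 0.81, adjusted p = 0.305), with effects of opposite sign in the lines. Neither passed, and without MUTZ-5 DMSO replicate 3 the CD38 difference was 0.60 and passed (adjusted p = 0.0228). TNFRSF13B differed by -0.39 (-0.79 to 0.0035, adjusted p = 0.483) and SDC1 by -0.17 (-0.48 to 0.14, adjusted p = 0.788). Without MUTZ-5 DMSO replicate 3 the genes passing were TNFRSF17 and CD38, and without MHH-CALL4 JQ1 replicate 3 PRDM1 alone. Over all genes 360 and 196 of 14232 passed in these fits.

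The lines were also compared under each treatment, which shows how far the genes differed between them under DMSO and under JQ1. Under DMSO 7 of the 10 genes differed, 4 higher and 3 lower in MUTZ-5, where 23.4% of all genes passed, 11.9% higher and 11.5% lower. CD38 averaged 10.20 ± 0.270 in MUTZ-5 and 12.35 ± 0.0751 in MHH-CALL4 (SD, n = 3 each), 4.45-fold lower in MUTZ-5 (log2 difference -2.15, SE 0.12, adjusted p = 7.95e-09). XBP1 was lower in MUTZ-5 by 1.67-fold (-0.74, adjusted p = 4.51e-06) and IRF4 by 1.54-fold (-0.62, adjusted p = 3.03e-05). For these 3 genes every MUTZ-5 array lay below every MHH-CALL4 array.

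PRDM1 averaged 8.43 ± 0.142 in MUTZ-5 and 7.40 ± 0.132 in MHH-CALL4 under DMSO, 2.04-fold higher in MUTZ-5 (log2 difference 1.03, SE 0.10, adjusted p = 4.6e-06). TNFRSF17 averaged 6.94 ± 0.373 in MUTZ-5 and 5.76 ± 0.131 in MHH-CALL4 (SD, n = 3 each), 2.27-fold higher (1.18, SE 0.16, adjusted p = 8.74e-05). TNFRSF13B was higher in MUTZ-5 by 0.54 (adjusted p = 0.00789). FKBP11 was higher there by 0.27 (adjusted p = 0.0305), and this call was lost without MUTZ-5 DMSO replicate 1 (0.0558), MUTZ-5 DMSO replicate 3 (0.0844), MHH-CALL4 DMSO replicate 1 (0.1) or MHH-CALL4 DMSO replicate 3 (0.0971). The FKBP11 call was lost as well with the extended probe sets, where the difference was 0.14 (0.186), and in a fit on the 6 DMSO arrays alone (0.0809). DERL3 (0.019), MZB1 (0.0083) and SDC1 (0.14) did not pass.

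Under JQ1 4 of the 10 genes differed between the lines, 1 higher and 3 lower in MUTZ-5, beside 19.9% of all genes, 11.7% higher and 8.25% lower. CD38 averaged 10.42 ± 0.0621 in MUTZ-5 and 12.12 ± 0.136 in MHH-CALL4 (SD, n = 3 each), 3.26-fold lower in MUTZ-5 (log2 difference -1.70, SE 0.12, adjusted p = 1.04e-07). XBP1 differed by -0.78 (adjusted p = 2.67e-06) and IRF4 by -0.33 (adjusted p = 0.00613). PRDM1 was higher in MUTZ-5 by 0.37 (adjusted p = 0.0222), a call lost without MUTZ-5 JQ1 replicate 1 (0.0847), MUTZ-5 JQ1 replicate 3 (0.0521), MHH-CALL4 JQ1 replicate 2 (0.0549) or MHH-CALL4 JQ1 replicate 3 (0.0949), and lost with the extended probe sets, where it was 0.21 (0.144), and with cyclic loess (0.34, adjusted p = 0.107). TNFRSF17 differed by 0.13 (95% interval -0.22 to 0.48, adjusted p = 0.739). Without MUTZ-5 DMSO replicate 3, 6 of the 10 genes differed under DMSO and 4 under JQ1. In that fit 3699 of 14232 genes differed under DMSO and 3183 under JQ1. Without MHH-CALL4 JQ1 replicate 3 the counts were 7 under DMSO and 3 under JQ1, beside 3458 and 2580 of 14232 genes.

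**Figure D3:**
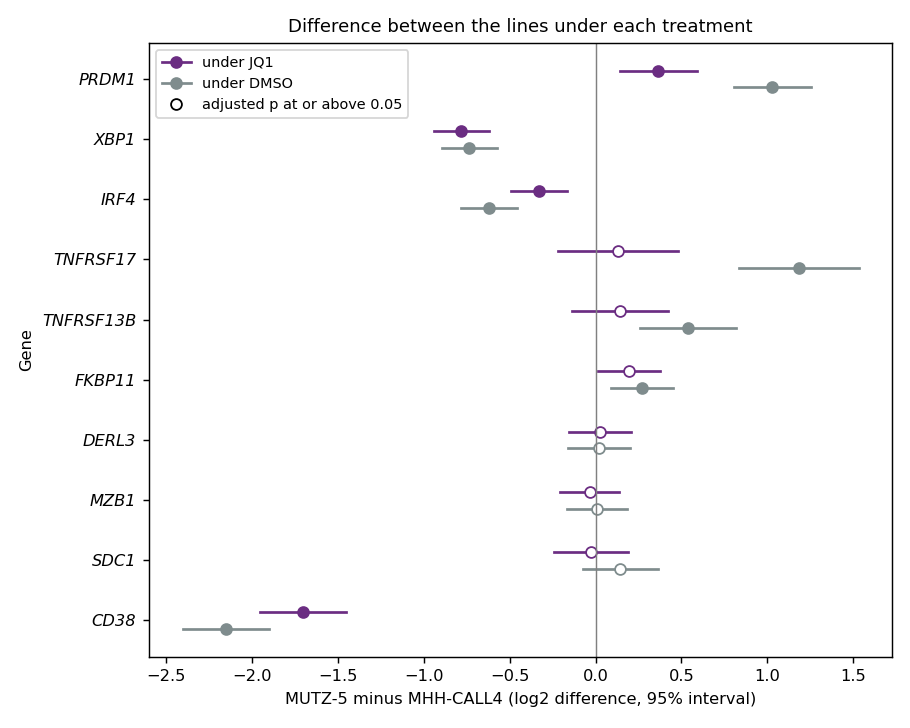
MUTZ-5 minus MHH-CALL4 (log2 difference, x axis) for each of the 10 genes (y axis) under JQ1 and under DMSO, with limma estimates, 95% intervals and open points where the adjusted p is at or above 0.05. CD38, XBP1 and IRF4 lie below 0 under both treatments, and PRDM1 lies at 0.37 under JQ1 and 1.03 under DMSO.

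Of 28 listed genes of the unfolded protein response, among them targets of XBP1, 25 were measured. In MUTZ-5 4 of the 25 fell, 1 rose and 20 did not pass, with a median effect of -0.067. These 5 of 25 are a share close to the 22% of all genes that passed there, so the count does not set the list apart. In MHH-CALL4 9 fell, 1 rose and 15 did not pass, beside 28.5% of all genes, with a median of -0.14. The 4 that fell in MUTZ-5 were SRPRB, a subunit of the receptor that brings ribosomes to the endoplasmic reticulum (-0.74), SDF2L1, a chaperone partner (-0.53), the chaperone HSPA5, also called BiP (-0.47), and the disulfide isomerase PDIA6 (-0.46). Those 4 fell in MHH-CALL4 too, SRPRB by 1.08, PDIA6 by 0.67, SDF2L1 by 0.58 and HSPA5 by 0.45. ERN1 was the gene that rose, by 0.26 in MUTZ-5 (adjusted p = 0.0167) and by 0.68 in MHH-CALL4 (adjusted p = 1.02e-05). A further 5 fell in MHH-CALL4 but did not pass in MUTZ-5, EDEM1 (-0.44), DNAJB11 (-0.36), CALR (-0.29), HYOU1 (-0.25) and CRELD2 (-0.22). The test of the difference between the lines gave these 5 genes adjusted p from 0.43 to 0.925, so unequal responses were not shown.

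**Figure D4:**
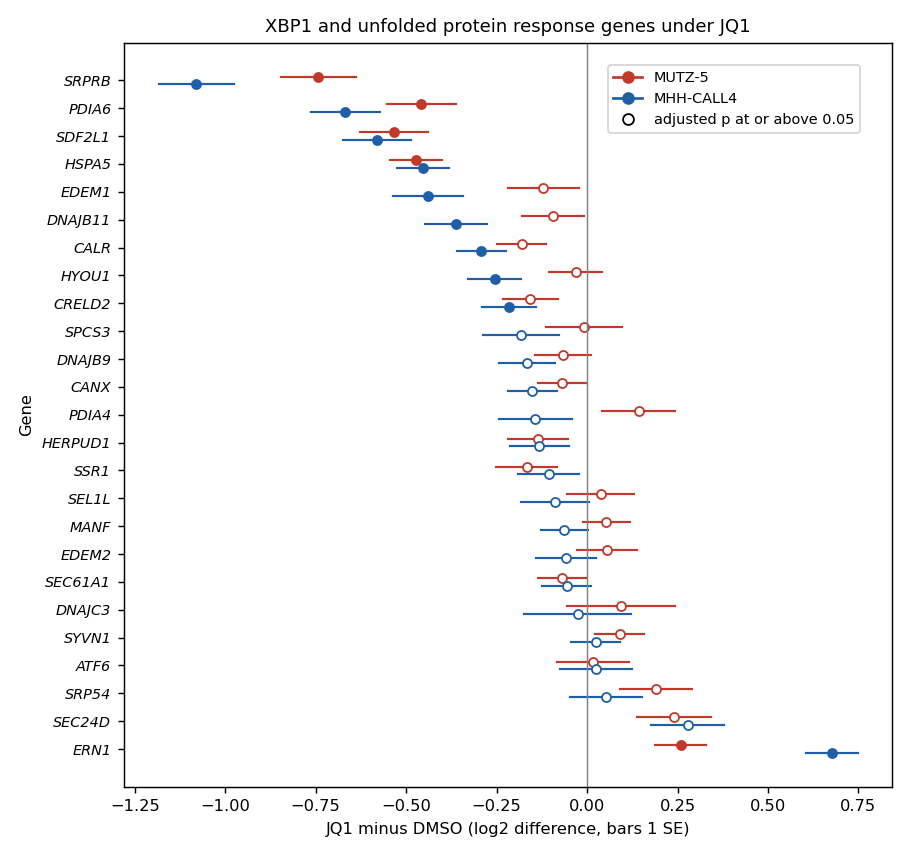
JQ1 minus DMSO (log2 difference, x axis) for 25 genes of the XBP1 and unfolded protein response list (y axis, ordered by the MHH-CALL4 effect) in MUTZ-5 and MHH-CALL4, with bars of 1 SE and open points where the adjusted p is at or above 0.05. SRPRB, PDIA6, SDF2L1 and HSPA5 lie left of 0 with filled points in both lines, and ERN1 lies right of 0. EDEM1, DNAJB11, CALR, HYOU1 and CRELD2 lie left of 0 with filled points in MHH-CALL4 only, and the other 15 have open points in both lines.

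Transcription factors that hold the B cell state were all measured, 16 in number. In MUTZ-5 3 rose, 4 fell and 9 did not pass, beside 22% of all genes that passed, and in MHH-CALL4 2 rose, 8 fell and 6 did not pass, beside 28.5%. The medians were -0.10 in MUTZ-5 and -0.29 in MHH-CALL4. IKZF3 (Aiolos) fell by 1.01 in MUTZ-5 and by 1.08 in MHH-CALL4, and SPI1 (PU.1) fell by 0.77 in MUTZ-5 and by 0.51 in MHH-CALL4. BCL6, a transcriptional repressor, rose by 0.51 in MUTZ-5 and by 0.50 in MHH-CALL4. POU2AF1, a coactivator used by B and plasma cells, fell by 0.51 in MUTZ-5 and by 0.41 in MHH-CALL4, and TCF3 fell by 0.30 in MUTZ-5 and by 0.53 in MHH-CALL4. IKZF1 (Ikaros) went opposite ways, 0.28 higher under JQ1 in MUTZ-5 (adjusted p = 0.0213) and 0.98 lower in MHH-CALL4 (log2 difference -0.98, adjusted p = 1.14e-06). ETS1 had an effect of 0.094 in MUTZ-5 (adjusted p = 0.685) and fell by 0.59 in MHH-CALL4, and its difference between the lines did not pass (adjusted p = 0.0573). The JQ1 effect on IKZF1 differed between the lines, MUTZ-5 minus MHH-CALL4, by 1.25 (adjusted p = 4.48e-05). That on BACH2, a repressor of PRDM1, differed by 0.72 (adjusted p = 0.00531). BACH2 fell by 0.48 in MHH-CALL4 (adjusted p = 0.000661), and its effect of 0.24 in MUTZ-5 did not pass (adjusted p = 0.0505). A part of BACH2 in the change of PRDM1 was not tested.

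Among 7 genes that PRDM1 is known to repress, 1 rose, 2 fell and 4 did not pass in MUTZ-5, beside 22% of all genes that passed, and 1 rose, 3 fell and 3 did not pass in MHH-CALL4, beside 28.5%. BCL6 was the one that rose in both lines, and MYC and SPI1 fell in both. CIITA, the activator of MHC class II genes, fell by 0.71 in MHH-CALL4 and changed by -0.14 in MUTZ-5 (adjusted p = 0.205), and its effects differed by 0.58 (adjusted p = 0.00662). PAX5, a central target of PRDM1, had an effect of 0.073 in MUTZ-5 (adjusted p = 0.571) and -0.035 in MHH-CALL4 (adjusted p = 0.755).

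In the BAFF and APRIL axis, 7 of 9 listed genes were measured beside the receptors described above. The signalling adaptor TRAF3, an inhibitor of noncanonical NF-kappaB signalling, fell by 0.57 in MUTZ-5 and by 0.93 in MHH-CALL4. It was the 1 gene of the axis that passed in MUTZ-5, 1 of 7 beside 22% of all genes. In MHH-CALL4 4 of 7 passed, beside 28.5% of all genes. The 3 others rose there, the ligand gene TNFSF13B (BAFF) by 0.36, the TACI partner CAMLG by 0.33 and the adaptor TRAF6 by 0.29. In MUTZ-5 the effects were -0.24 for TNFSF13B (adjusted p = 0.163), 0.28 for CAMLG (0.0615) and 0.22 for TRAF6 (0.0556). Their differences between the lines did not pass (adjusted p = 0.0885, 0.954 and 0.921), so unequal responses were not shown. Of 7 measured interferon regulatory factors other than IRF4, IRF7 rose by 0.80 in MUTZ-5 and by 0.74 in MHH-CALL4. IRF5 fell by 0.39 and IRF9 rose by 0.25 in MHH-CALL4, and the other 4 passed in neither line. Thus 1 of 7 passed in MUTZ-5 and 3 of 7 in MHH-CALL4, beside the same 22% and 28.5%. The difference between the lines did not pass for IRF5 (adjusted p = 0.124) or IRF9 (0.129).

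Of 14 measured relatives of the 10 genes, 2 passed in MUTZ-5 and 2 in MHH-CALL4, a lower share than the 22% and 28.5% of all genes. The zinc finger gene PRDM10 fell by 0.72 in MUTZ-5 and by 0.97 in MHH-CALL4, TNFRSF8 (CD30) fell by 0.49 in MUTZ-5 and had an effect of 0.16 in MHH-CALL4 (adjusted p = 0.186). FKBP14 rose by 0.27 in MHH-CALL4, with means of 5.36 under JQ1 and 5.09 under DMSO, below the 10th percentile of all genes (5.72). How far such levels lie above background is not known. Its difference between the lines did not pass (adjusted p = 0.166). The derlins DERL1 and DERL2 had effects between -0.15 and -0.056 in both lines and did not pass. Of 11 other plasma cell markers, 1 rose and 0 fell in MUTZ-5 and 3 rose and 0 fell in MHH-CALL4, counts beside the same 22% and 28.5% of all genes, with medians of 0.095 in MUTZ-5 and 0.14 in MHH-CALL4. TRAM2 rose by 0.56 in MUTZ-5 and by 0.33 in MHH-CALL4. The elongation factor ELL2 rose by 1.19 and the kinase gene PIM2 by 0.36 in MHH-CALL4. In MUTZ-5 ELL2 (0.44, adjusted p = 0.191) and PIM2 (0.22, 0.125) did not pass. Their differences between the lines did not pass either (adjusted p = 0.379 for ELL2 and 0.818 for PIM2). JCHAIN, the joining chain of secreted antibodies, had levels of 13.89 in MUTZ-5 under both treatments, and 13.57 under JQ1 and 13.73 under DMSO in MHH-CALL4.

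Markers of the precursor B cell and of other cell types were read beside these genes. Of 10 precursor B cell markers, 4 fell and 1 rose in MUTZ-5, beside 22% of all genes that passed, and 3 fell and 0 rose in MHH-CALL4, beside 28.5%. VPREB1, part of the surrogate light chain, fell by 1.09 in MUTZ-5 and by 1.03 in MHH-CALL4, and CD79A, a signalling chain of the B cell receptor, fell by 0.64 in MUTZ-5 and by 0.57 in MHH-CALL4. CD34 fell by 0.95 and CD79B by 0.26 in MUTZ-5, RAG1 rose by 0.26 there, and EBF1 fell by 0.45 in MHH-CALL4. Of 10 T and NK cell markers 1 passed in MUTZ-5 and 2 in MHH-CALL4, shares below those of all genes: NKG7 fell by 0.64 in MUTZ-5 and by 0.96 in MHH-CALL4, and CD247 fell by 0.74 in MHH-CALL4. Of 7 myeloid markers 1 passed in MUTZ-5 and 3 in MHH-CALL4, beside the same 22% and 28.5% of all genes. VCAN, the proteoglycan versican, fell by 1.58 in MUTZ-5 and by 0.85 in MHH-CALL4, the decrease in MUTZ-5 being as large as that of TNFRSF17. In MHH-CALL4 LYZ fell by 0.83 and CSF3R rose by 0.34. For CD79B, RAG1, EBF1, CD247 and CSF3R the difference of effects between the lines did not pass (adjusted p from 0.105 to 0.585).

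Beside PRDM1 and TNFRSF17, the difference of effects, MUTZ-5 minus MHH-CALL4, passed below 0 for CD34 (-0.995, adjusted p = 0.0115) and for TNFRSF8 (-0.66, adjusted p = 0.0143), while that of VCAN (-0.73) did not pass (adjusted p = 0.0695). LYZ differed the other way (1.02, adjusted p = 0.00317). CD34 in MHH-CALL4 had means of 6.98 under JQ1 and 6.93 under DMSO, below the 25th percentile of all genes (6.99). LYZ in MUTZ-5 had means of 5.77 under JQ1 and 5.58 under DMSO, near the 10th percentile (5.72). Whether such low levels contribute to these differences was not tested. The part of these markers in the changes of the 10 genes was not tested.

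Over the 12 arrays, which share 4 group means, the levels of the 10 genes fell into patterns that are given as a description. FKBP11 followed DERL3 (Pearson r = 0.956) and MZB1 (0.925), TNFRSF17 followed PRDM1 (0.904), and CD38 followed IRF4 (0.975) and XBP1 (0.922). SDC1 had no r above 0.338 with any of the other 9. Among 1268 other genes whose group means spanned at least 1 log2 unit, the profile most like that of PRDM1 belonged to LRRC34 (0.98), VNN2 (0.963) and ITGA8 (0.961), and that most like TNFRSF17 to OLFM4 (0.981), GREM1 (0.972) and AJUBA (0.971). For FKBP11 they were WDFY4 (0.987), ZNF507 (0.986) and ZNF546 (0.986), and for CD38 SDHAF3 (0.993), CCDC125 (0.993) and C12orf75 (0.992). ITGA8 had a mean of 6.44 in MUTZ-5 under JQ1, against 9.08 under DMSO, and 5.74 in MHH-CALL4 under JQ1, against 5.94 under DMSO, the same order of groups as PRDM1.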

How the data were processed

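RNA of MUTZ-5 and MHH-CALL4 cells under JQ1 or DMSO was measured on 12 Affymetrix exon arrays. The deposited values are log2 levels made by the authors with RMA in Affymetrix Expression Console, per the submitters' processing notes, and each array was deposited in a core and an extended summary of the same scan, 24 columns in all. Which arrays were normalized together, the genome build and the software version are not given in the sources used here. No deposited column lacked a sample. Symbols came from the platform annotation, updated by their RefSeq gene IDs. Of 22011 core clusters, 14432 carry 1 symbol, and for 197 genes with several such clusters the one with the highest mean was used, leaving 14232 genes.

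No further normalization and no filter on low values were applied. On the core values of all 12 arrays, limma 3.58.1 (R 4.3.3; lmFit, eBayes) estimated the 4 group means, with 5 two-sided comparisons, each adjusted by Benjamini-Hochberg over all 14232 genes at a threshold of 0.05. The script was tested on simulated data. The number of arrays limits the precision, and array medians lay between 8.46 and 8.57.

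The 10 genes, the 10 gene lists and the tests were chosen with earlier results of these data known. The named genes are the 10 members, MYC and HEXIM1, up to 4 called genes per list and line by size of effect, and the 3 genes most like each member whose group means span at least 1 log2 unit. Other genes of the unfolded protein response list appear in a plot, and PAX5, BACH2, RAG1, DERL1, DERL2, JCHAIN, EDEM1, DNAJB11, CALR, HYOU1 and CRELD2, and effects of named genes in the line where the rule did not reach them, were chosen after their values were seen. A promoter motif that cannot be spelled with A, C, G, T and N was not searched. Alternatives were the extended summaries, median centring, cyclic loess, only genes at or above the median level, eBayes with trend or robust, a fit on the arrays of the comparison alone, a replicate block, a threshold of 0.01, and each of the 12 arrays left out in turn.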

Additional observations from a re-analysis of the deposited data

Results flagged for a closer look

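By the limma test of the difference itself, the JQ1 effect differed between the lines for PRDM1 by -0.66 (adjusted p = 0.0408). For TNFRSF17 it differed by -1.05 (adjusted p = 0.0377; both MUTZ-5 minus MHH-CALL4, log2). Both calls lie close to the threshold and were lost with cyclic loess and at adjusted p under 0.01. Over the 12 fits that leave out 1 array, PRDM1 passed in 2 and TNFRSF17 in 4. PRDM1 was lowered by JQ1 more in MUTZ-5 (-0.88) than in MHH-CALL4 (-0.22), and TNFRSF17 likewise (-1.53 in MUTZ-5 and -0.48 in MHH-CALL4). Both genes were also higher in MUTZ-5 under DMSO, by 1.03 for PRDM1 and 1.18 for TNFRSF17. That comparison shares its DMSO arrays with the difference of effects and is no independent evidence for it. For TNFRSF17 the JQ1 means of both lines lie in the low end of the scale, below 5.72. The MHH-CALL4 DMSO mean of 5.76 lies just above that value. The part of such low levels in the difference was not tested.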

How the results depend on the processing

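Of the comparisons of the 10 genes under settings other than leaving out an array, 396 kept direction and side of the threshold, 17 lost and 4 gained the call (IRF4 and TNFRSF13B in MUTZ-5 once each, XBP1 in MHH-CALL4 under 2 settings), and 8 changed sign. The counts of genes called stayed within 1.5 times in 4 of the 5 comparisons. For the difference of the JQ1 effects the count of 2 became 0 with cyclic loess (adjusted p = 0.172 for PRDM1 and 0.0635 for TNFRSF17), 0 at adjusted p under 0.01, and 0 when genes below the median level were left out, a filter that removes PRDM1, TNFRSF17 and SDC1. Leaving out 1 array it ranged from 0 to 2. The same fits gave 5 to 7 genes for MUTZ-5 and 3 to 6 for MHH-CALL4 under JQ1 against DMSO. Over all genes 218 passed in the difference of effects, against 136 with a replicate block, 117 at adjusted p under 0.01 and 360 without MUTZ-5 DMSO replicate 3. At 0.01 the calls under JQ1 were 2011 of 3138 in MUTZ-5 and 2466 of 4057 in MHH-CALL4, and between lines under DMSO 2197 of 3330.

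Whether replicate numbers pair the samples is not known. Same-numbered JQ1 and DMSO arrays correlated at -0.174, -0.213 and -0.436 in MUTZ-5 and at 0.299, 0.07 and 0.229 in MHH-CALL4 (deviations from group means). Of the 6 pairs, 2 matched their own number best. With 3 arrays per group these values cannot decide it. With a replicate block the counts were 5 in MUTZ-5, 4 in MHH-CALL4 and 1, TNFRSF17, for the difference of effects (PRDM1 adjusted p = 0.0858). Between lines they were 6 under DMSO and 4 under JQ1. Of all 14232 genes the block gave 2598 in MUTZ-5, 3415 in MHH-CALL4 and 136 for the difference of effects. Between lines it gave 2990 under DMSO and 2565 under JQ1. The block ended the call of XBP1 in MUTZ-5 (adjusted p = 0.0942) and that of FKBP11 between lines under DMSO (0.06).

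The sign changes concerned values near 0. With extended summaries the difference of effects was -0.0015 for DERL3 and 0.0192 for MZB1, and MZB1 differed between lines under DMSO by -0.0772. After median centring DERL3 differed between lines by -0.0196 and MZB1 by -0.0303 under DMSO, and DERL3 by -0.0104 under JQ1. With cyclic loess DERL3 gave -0.0113 for the difference of effects and -0.0092 between lines under JQ1. Over the 12 fits without 1 array, the JQ1 effect in MHH-CALL4 ranged from -0.0996 to 0.1424 for TNFRSF13B and from -0.0045 to 0.1626 for SDC1. The difference of effects ranged from -0.1412 to 0.0107 for FKBP11, from -0.0606 to 0.0693 for DERL3 and from -0.0915 to 0.0161 for MZB1. Between lines under DMSO the range was -0.0447 to 0.0853 for DERL3 and -0.0407 to 0.0576 for MZB1. Under JQ1 it was -0.003 to 0.2001 for TNFRSF17, -0.0321 to 0.0774 for DERL3, -0.0745 to 0.0244 for MZB1 and -0.0878 to 0.0419 for SDC1. The causes were not tested. No member had a second core cluster, so that alternative gave no value, and a fit on the arrays of 1 comparison was not run for the difference of effects. How far a level lies above background is not known, which limits what the low values of TNFRSF17 show.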
